A study of Saccharomyces cerevisiae with 11 samples.

Results

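Ribosome footprints were set against mRNA, gene by gene, within the dES7S strain of Saccharomyces cerevisiae. The members were the 3 dES7S_RPF libraries (ribosome-protected fragments, replicates 1 to 3) and the 3 dES7S_mRNA libraries (poly(A)-enriched mRNA, replicates 1 to 3), chosen by their sample labels, 6 of the 11 libraries of the series. The cells of both groups lack genomic rDNA and make their rRNA from a plasmid alone, here a plasmid with the rRNA sequence from which ES7S is deleted (labelled deltaES7S). They were grown in YPD to an OD of 0.8, snap-frozen and ground. The parent strain is named yJD1046 in the sample labels and yJD1045 in the series description. Nothing in the labels tells if the replicates came from separate cultures. The p-values below therefore measure only the spread between these libraries, which may be technical. No library of the strain with WT rRNA was used, so a high or low ratio below describes dES7S cells and is not shown to differ from WT cells.

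ES7S is an expansion segment of the 18S rRNA, a stretch that eukaryotic small ribosomal subunits carry beyond the core shared with bacteria. In ribosome profiling, nuclease trims mRNA down to the fragments held inside ribosomes, and the number of such footprints on a gene follows both how much mRNA there is and how densely ribosomes sit on it. Dividing footprints by mRNA gives a measure of ribosome density, often called translation efficiency. It rises when more ribosomes start on an mRNA and also when ribosomes move more slowly along it.

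The footprint libraries held 14170578, 14171383 and 5712239 counts and the mRNA libraries 32081744, 18953306 and 17981273 counts in replicates 1 to 3, so that replicate 3 of the footprints was the shallowest. Each library listed between 5567 and 5704 genes. Levels are given as CPM, the counts of a gene scaled to the same total in every library. Ratios are fitted log2 footprint over mRNA values with their standard error (SE), scaled with TMM factors of 0.847 to 1.10 and tested with edgeR's quasi-likelihood test with Benjamini-Hochberg adjustment. "Higher" and "lower" are used of genes with an adjusted p under 0.05. All ratios are relative to the other genes of the same libraries, since no spike-in is named. Genes of the a mating type were present, STE2 (the alpha-factor receptor) with 94.8, 100.1 and 131 CPM in the footprint libraries, against 205, 164 and 189 CPM in the mRNA libraries, while MF(ALPHA)1 (alpha-factor) stayed at or under 1.09 CPM in every library. Not all genes of the alpha mating type were near 0. SAG1 (alpha-agglutinin) was present in mRNA at levels given below, and STE3 (the a-factor receptor) was also counted.

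Of 5535 genes tested, 1791 (32.4%) were higher and 1862 (33.6%) lower in footprints than in mRNA, 66% in all, and 3845 (69.5%) had an unadjusted p under 0.05. By at least 2-fold, 1049 genes (19%) were higher and 982 (17.7%) lower. The 3 footprint libraries all lay above the 3 mRNA libraries in CPM for 1981 genes (35.8%) and all below for 1827 (33%). The median log2 ratio was -0.02. The middle 50% of genes lay between -0.73 and 0.75, and the 5th and 95th percentiles were -1.86 and 2.17. Footprint and mRNA levels per kb had a Spearman rho of 0.841, given as a description since genes are not independent replicates. It was taken across 5458 genes with a known length, without mitochondrially encoded genes and genes that overlap another listed gene.

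**Figure D1:**
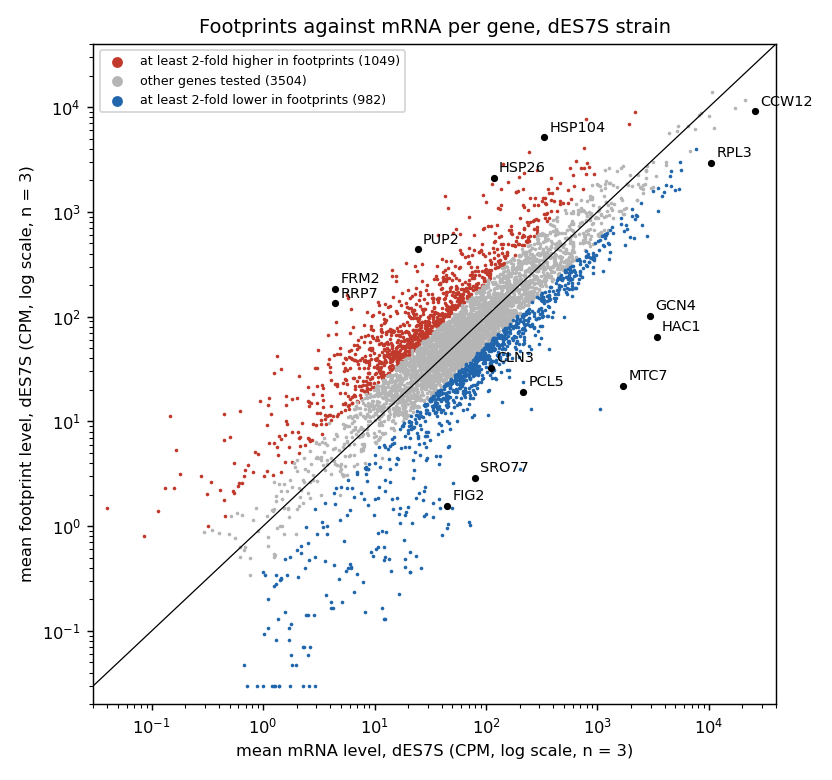
Mean footprint level against mean mRNA level of each gene tested in dES7S cells, in CPM on log axes, with 3 libraries per mean and the line of equal CPM. Genes at least 2-fold higher in footprints are red (1049), those at least 2-fold lower are blue (982) and all others grey, with genes under 0.03 CPM drawn at 0.03. HAC1, GCN4 and MTC7 lie far below the line at high mRNA levels, and HSP104, HSP26 and PUP2 above it.

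The genes with the fewest footprints for their mRNA included HAC1 and GCN4, which are textbook cases of translational repression. HAC1 (YFL031W), the transcription factor of the unfolded protein response, whose unspliced mRNA is held untranslated by base pairing of its intron with its leader, had 55.5, 58.1 and 78.95 CPM in the footprint libraries, against 2446, 4522 and 3224 CPM in the mRNA libraries. Its log2 ratio was -5.87 ± 0.42 (SE; adjusted p = 1.29e-05), with every footprint library far under every mRNA library. GCN4 (YEL009C), the activator of amino acid biosynthesis genes, whose short upstream open reading frames (uORFs) keep ribosomes from its coding sequence in fed cells, had 93.6, 89.4 and 124 CPM in the footprint libraries, against 2931, 3042 and 2864 CPM in the mRNA libraries. Its log2 ratio was -4.96 ± 0.29 (adjusted p = 6.61e-06), and the 3 mRNA libraries differed little among themselves. PCL5 (YHR071W), the cyclin that directs Pho85 kinase to Gcn4 for its degradation, had 14.1, 18.2 and 25.4 CPM in the footprint libraries, against 217, 193 and 229.8 CPM in the mRNA libraries, a log2 ratio of -3.59 ± 0.22.

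Among 19 genes listed for a uORF known to act in translation, 11 were lower and 4 higher, 8 and 2 of them by at least 2-fold, with a median log2 ratio of -0.89 against -0.02 over all genes. Lower members were 57.9% of the list and higher ones 21.1%, against 33.6% and 32.4% of all genes tested. By at least 2-fold, 42.1% were lower and 10.5% higher, against 17.7% and 19% of all genes. The list took 0.238%, 0.24% and 0.253% of footprint counts, against 0.621%, 0.696% and 0.644% of mRNA counts. GCN4 was the lowest member. CLN3, the G1 cyclin, had 34.01, 31.5 and 32.04 CPM in the footprint libraries, against 123, 100.5 and 110.1 CPM in the mRNA libraries, and its log2 ratio was -1.86 ± 0.13 (adjusted p = 1.26e-05). HOL1, a polyamine transporter whose uORF stalls ribosomes when polyamines are plentiful, had a log2 ratio of -2.34 ± 0.15, SCH9, a kinase downstream of TORC1, -1.63 ± 0.25, and HAP4, the activator of respiratory genes, -1.02 ± 0.15. Here and below, members of a list other than its highest and lowest called were picked as examples after their values were seen, unless a fixed rule named them. CPA1, the arginine-regulated carbamoyl phosphate synthetase subunit, did not pass the test in the 6 libraries, with 133, 143 and 136 CPM in the footprint libraries, against 265, 124 and 156 CPM in the mRNA libraries and an adjusted p of 0.0654. Without mRNA replicate 2 its log2 ratio was -0.59 with an adjusted p of 0.0253. YAP1, a transcription factor of the oxidative stress response, which also has a uORF, was higher in footprints, with 292, 366 and 489.8 CPM in the footprint libraries, against 197, 179 and 231 CPM in the mRNA libraries and a log2 ratio of 0.82 ± 0.22. RPC11, a subunit of RNA polymerase III, was the highest of the list at 1.53 ± 0.16. The count of 8 members lower by at least 2-fold was 5 without mRNA replicate 2, and also 5 when libraries were scaled by their totals without TMM factors. The 2 members higher by at least 2-fold were 1 without footprint replicate 3 or mRNA replicate 2.

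Programmed +1 frameshifting is needed to make the full proteins of 3 further genes. OAZ1, the antizyme that marks ornithine decarboxylase for degradation, had 33.9, 38.95 and 44.8 CPM in the footprint libraries, against 59.7, 60.1 and 59.8 CPM in the mRNA libraries and a log2 ratio of -0.72 ± 0.16. ABP140, an actin-binding tRNA methyltransferase, was lower in footprints, with a log2 ratio of -1.21 ± 0.20. EST3, a telomerase subunit, had 19.4, 20.9 and 19.1 CPM in the footprint libraries, against 23.3, 14.6 and 19.2 CPM in the mRNA libraries, and its libraries overlapped (log2 ratio -0.02 ± 0.16, adjusted p = 0.928). The sources used here do not give which part of each coding sequence the counts cover.

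**Figure D2:**
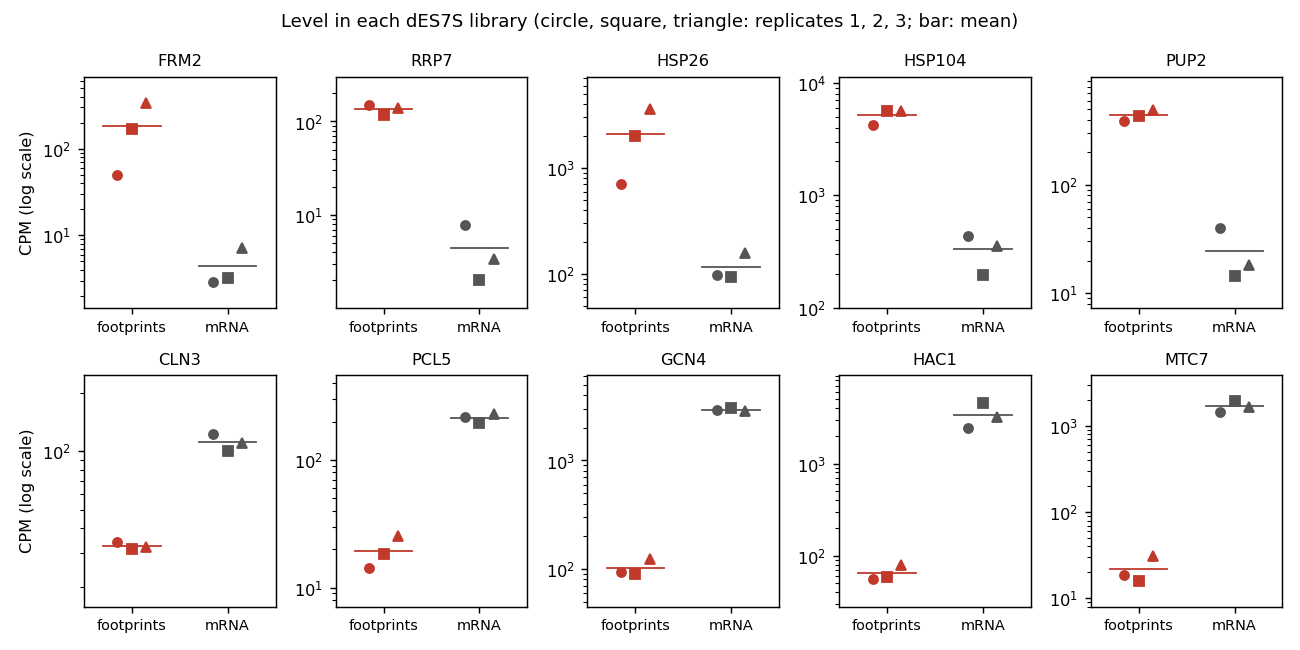
Level of 10 named genes in each library of the dES7S strain, in CPM on a log axis, with footprints on the left and mRNA on the right of each panel and bars at the mean. In every panel the 3 footprint libraries lie wholly above or wholly below the 3 mRNA libraries. The rule that named the genes required this for all but HSP104 and CLN3. FRM2 and HSP26 spread most widely over the footprint libraries, with replicate 1 lowest.

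Of 3056 genes whose log2 CPM averaged 4 or more and that passed the test with no overlap of libraries, the 15 lowest ratios ran from -6.41 to -3.37. Besides HAC1, GCN4 and PCL5 they were MTC7, SPG3, LIH1, FIG2, SRO77, CNM1, TRK2, CST9, MOR1, ADH4, ALR2 and LPX1. For 13 of the 15 the mean footprint level was under 30 CPM. MTC7 (YEL033W) had 18.8, 15.9 and 31.2 CPM in the footprint libraries, against 1468, 1936 and 1682 CPM in the mRNA libraries. Its neighbour HYP2, which encodes the translation factor eIF5A, had mean levels of 2213 CPM in footprints and 4453 CPM in mRNA. FIG2 (YCR089W), a cell wall adhesin of mating cells, had 1.55, 1.06 and 2.101 CPM in the footprint libraries, against 48.1, 39.7 and 46.4 CPM in the mRNA libraries. SRO77, a Lgl-family protein of exocytosis, had 3.67, 2.54 and 2.45 CPM in the footprint libraries, against 81.6, 77.2 and 78.6 CPM in the mRNA libraries. In both genes the 3 mRNA libraries lay close together and no footprint library reached 4 CPM. TRK2, a potassium transporter, and ALR2, a magnesium transporter family member, had log2 ratios of -4.53 ± 0.29 and -3.65 ± 0.26. CST9, a meiotic chromosome protein, had -4.44 ± 0.20, ADH4, an alcohol dehydrogenase, -4.37 ± 0.20, and LPX1, a peroxisomal lipase, -3.37 ± 0.17.

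A further 7 genes with ratios as low were kept apart because the gene table gives them no name or because they overlap another listed gene. YCR024C-B had 12.5, 9.03 and 17.5 CPM in the footprint libraries, against 909.8, 1006 and 1262 CPM in the mRNA libraries. It lies next to PMP1, a regulator of the plasma membrane proton pump, for which the means were 870.4 CPM in footprints and 336 CPM in mRNA. YLR342W-A had 5.08, 3.46 and 1.93 CPM in the footprint libraries, against 153, 220.4 and 235 CPM in the mRNA libraries, beside FKS1, the glucan synthase gene, with 4915 CPM in mRNA. FYV5 overlaps ADF1: FYV5 had 1.06, 1.06 and 1.05 CPM in the footprint libraries, against 43.4, 42.6 and 51.5 CPM in the mRNA libraries, and ADF1 127, 95.7 and 137 CPM in the footprint libraries, against 29.95, 15.9 and 17.9 CPM in the mRNA libraries. Reads of overlapping genes cannot be told apart unless strand was used in counting, and the sources used here do not give that. The others were YLR285C-A, YER138W-A, YBL071C-B and PRM10, the last of which overlaps YJL107C.

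At the other end, the 15 highest ratios ran from 4.0 to 5.29. They named 4 genes of redox defence, FRM2 (a nitroreductase), OSI1 (named for its induction by oxidative stress), OYE3 (an NADPH oxidoreductase) and GPX2 (a glutathione peroxidase). FRM2 (YCL026C-A) had 50.3, 168 and 335 CPM in the footprint libraries, against 2.87, 3.22 and 7.17 CPM in the mRNA libraries (log2 ratio 5.29 ± 0.71, adjusted p = 0.000268). OYE3 had 1364, 2956 and 4348 CPM in the footprint libraries, against 88.6, 46.7 and 294 CPM in the mRNA libraries (log2 ratio 4.25 ± 0.72). In both, footprint replicate 1 was the lowest and replicate 3 the highest footprint library, several-fold apart. That all 3 lay above every mRNA library was a condition of the rule that named these genes. MET2 and MET14, enzymes of methionine synthesis and sulfate assimilation, had log2 ratios of 4.17 ± 0.40 and 4.0 ± 0.37. RRP7, a 40S assembly factor, had 149, 116 and 139.9 CPM in the footprint libraries, against 7.85, 2.005 and 3.39 CPM in the mRNA libraries (log2 ratio 4.85 ± 0.37), and its footprint libraries lay close together. PUP2, an alpha subunit of the 20S proteasome, had 390.1, 429 and 493 CPM in the footprint libraries, against 40.3, 14.5 and 18.1 CPM in the mRNA libraries (log2 ratio 4.12 ± 0.31). APE1, the vacuolar aminopeptidase carried by the Cvt pathway, had 558, 1048 and 1650.1 CPM in the footprint libraries, against 42.7, 19.7 and 75.2 CPM in the mRNA libraries. HSP26, a small heat shock protein, had 707, 2021 and 3604 CPM in the footprint libraries, against 98.7, 94.4 and 157 CPM in the mRNA libraries. The remaining 5 were CHM7 (nuclear envelope surveillance, log2 ratio 4.86), PAR32 (4.61), SLK19 (kinetochores and the spindle, 4.22), SUE1 (4.19) and GPT2 (a glycerol-3-phosphate acyltransferase, 4.06). The unnamed YDL218W, kept apart, had 29.6, 119 and 335 CPM in the footprint libraries, against 4.89, 5.17 and 6.95 CPM in the mRNA libraries. Of the 15, 11 had a mean mRNA level under 30 CPM, 13 had their lowest footprint level in replicate 1, and 14 had their lowest mRNA level in replicate 2. The same shares over all genes were not counted, so these are not shown to be traits of the 15. CPM are not scaled by TMM factors, and mRNA replicate 2 had the lowest factor, 0.847, against 1.10 and 0.971 in mRNA replicates 1 and 3.

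The gene lists, ordered by median ratio, placed stress genes, chaperones and the proteasome at the top and genes with a known uORF and cytosolic ribosomal proteins at the bottom. Lists can share members. HSP26 is in both the stress and the chaperone list, so the values of these lists are not independent. Counts of members called are to be read against the 32.4% of all genes that were higher and the 33.6% that were lower. By at least 2-fold, 19% of all genes were higher and 17.7% lower.

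**Figure D3:**
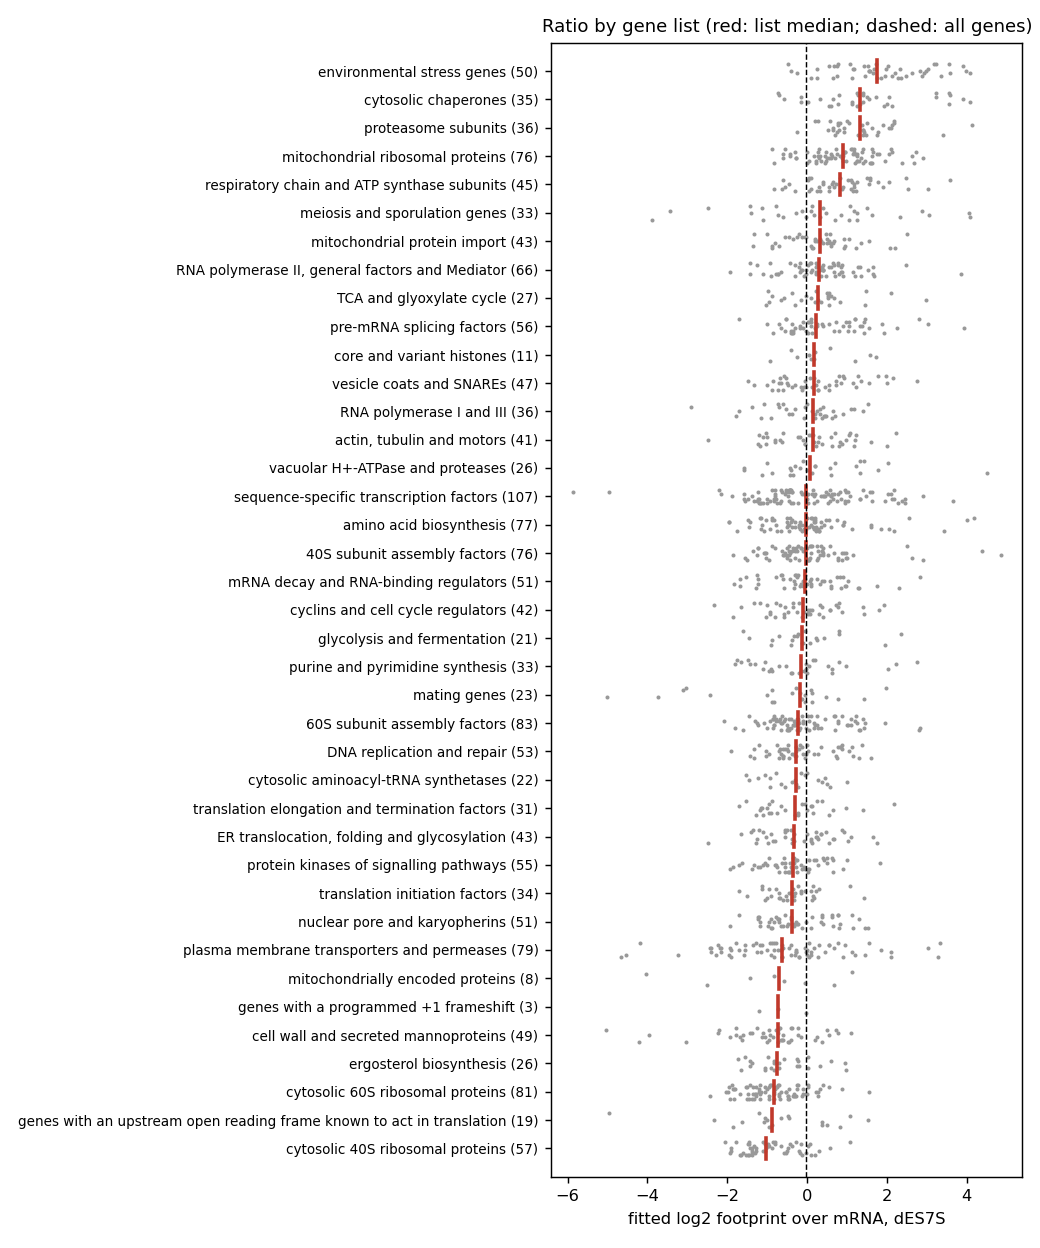
Fitted log2 footprint over mRNA ratio of every tested member (grey points) of 39 gene lists in dES7S cells, ordered by list median (red bars), with the number tested in brackets and the median of all genes as a dashed line. Environmental stress genes have the highest median (1.74) and cytosolic 40S ribosomal proteins the lowest (-1.02).

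Cytosolic ribosomal protein (RP) mRNAs carried few footprints for their abundance. Among 57 genes of the 40S subunit 37 were lower and 1 higher, with a median log2 ratio of -1.02. Among 81 genes of the 60S subunit 44 were lower and 2 higher, with a median of -0.83. By at least 2-fold, 29 and 34 members were lower. RPL3, a core 60S protein, had 4274, 2721 and 1869 CPM in the footprint libraries, against 9382, 12912 and 8986 CPM in the mRNA libraries (log2 ratio -1.94 ± 0.39, adjusted p = 0.00207). The 2 RP lists together took 11.2%, 8.07% and 5.43% of footprint counts in replicates 1, 2 and 3, against 14.7%, 16.8% and 13.3% of mRNA counts. The mean log2 level of the list ranged by 1.11 for 40S and 1.199 for 60S genes over footprint libraries, against 0.45 and 0.44 over mRNA libraries. Over the 9 pairings of a footprint library with a mRNA library the median ratio ran from -1.98 to -0.40 for 40S and from -1.98 to -0.20 for 60S genes, below 0 in all 9.

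**Figure D4:**
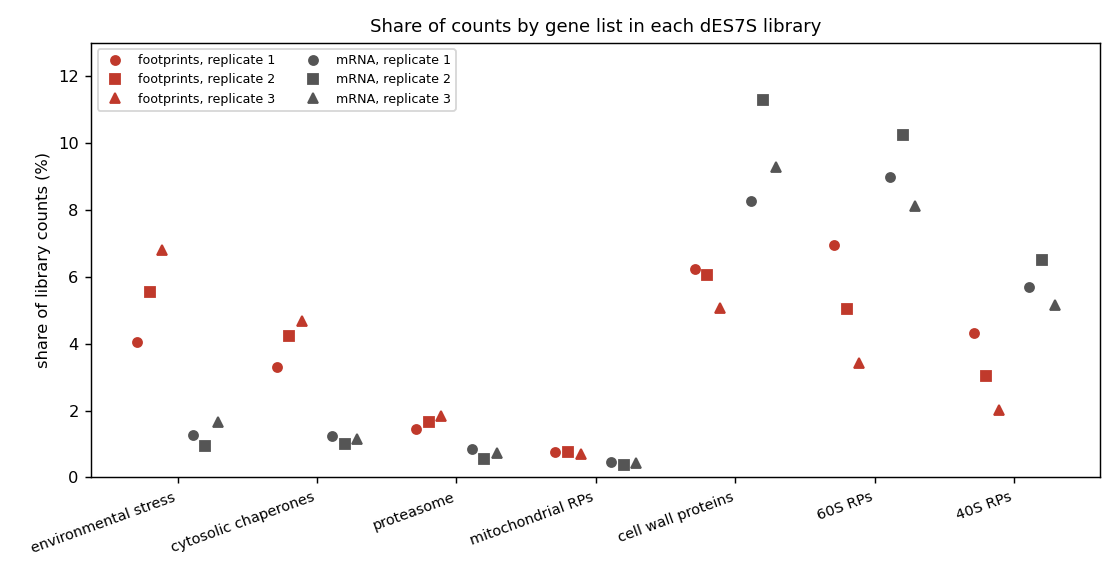
Share of library counts in percent taken by 7 gene lists in each dES7S library, footprints on the left (red) and mRNA on the right (grey) of each list, 1 symbol per replicate. Environmental stress genes and chaperones take a larger share of every footprint library than of any mRNA library. Cell wall protein, 60S and 40S genes take a smaller share of every footprint library than of any mRNA library, and footprint replicate 3 is the lowest for all 3 lists.

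Most RPs are encoded by a pair of near-identical genes, and reads shared by both copies may have been split or lost in the authors' counting, so single copies are uncertain. In 25 of 59 pairs both copies were lower, in 14 one copy was lower and the other not called, and in 17 neither was called. In 8 pairs the copies differed by at least 1 on the log2 scale. RPL15A had 1331, 869 and 543 CPM in the footprint libraries, against 2004, 2842 and 2011 CPM in the mRNA libraries (log2 ratio -1.45 ± 0.38), while its rarer copy RPL15B had 38.1, 37.5 and 33.6 CPM in the footprint libraries, against 17.2, 9.76 and 8.68 CPM in the mRNA libraries (1.54 ± 0.22). RPS9B had a log2 ratio of -1.39 ± 0.29 at a mean mRNA level of 1815 CPM, and RPS9A, at 32.9 CPM, 0.08 ± 0.24 (adjusted p = 0.78). RPS26B was the lowest called 40S gene at -2.07 ± 0.31, with RPS26A at -0.17 ± 0.30 and not called. RPL1B was the lowest 60S gene at -2.44 ± 0.50. Among 40S genes 1, RPS19A, was called higher, at 1.07 ± 0.36. Without footprint replicate 1 or 2, or mRNA replicate 2 or 3, its adjusted p was 0.0635 to 0.0894. Without footprint replicate 3, 2 genes of the 40S list were higher. The 2 higher 60S genes were 1 without footprint replicate 1 or 2 or mRNA replicate 2 or 3, and 1 with totals in place of TMM factors or with limma-voom.

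Initiation, elongation and tRNA charging factors held genes of both directions. Of 34 initiation factor genes 14 were lower and 2 higher, with a median log2 ratio of -0.38. GCN2, the kinase that phosphorylates eIF2, was lowest at -1.70 ± 0.14. RLI1, which recycles ribosomes, had 256, 216 and 159 CPM in the footprint libraries, against 458, 692 and 497 CPM in the mRNA libraries, and PAB1, the poly(A)-binding protein, 1155, 1095 and 957 CPM in the footprint libraries, against 1746, 2408 and 1960.2 CPM in the mRNA libraries (log2 ratios -1.51 ± 0.29 and -1.05 ± 0.27). The 2 higher members were DBP1, a DEAD-box helicase related to Ded1 (1.42 ± 0.24), and CAF20, which binds the cap-binding protein eIF4E (1.07 ± 0.21). Of 31 elongation and termination factor genes 13 were lower and 4 higher, a count of lower genes that was 8 without footprint replicate 2. DPH2, an enzyme of diphthamide synthesis, was lowest at -1.70 ± 0.16. EFT1 was highest at 2.18 ± 0.35 and its copy EFT2, which encodes the same protein, had -0.56 ± 0.32 (adjusted p = 0.152), so that this pair is uncertain for the reason given for RPs. Of 22 aminoacyl-tRNA synthetases 9 were lower and 3 higher, the 3 being 6 without mRNA replicate 1 and 1 without any of footprint replicates 1 and 2 or mRNA replicates 2 and 3. Members lower by at least 2-fold numbered 6 (17.6%) among initiation factors, 7 (22.6%) among elongation factors and 4 (18.2%) among synthetases. The share over all genes tested was 17.7%. Without mRNA replicate 2 these counts were 3, 3 and 2.

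Ribosome assembly lists held genes of both directions, as did all genes tested, of which 32.4% were higher and 33.6% lower. Of 76 factors for the 40S subunit 17 (22.4%) were higher and 25 (32.9%) lower, with a median log2 ratio of -0.04. Of 83 for the 60S subunit 21 (25.3%) were higher and 29 (34.9%) lower, with a median of -0.24. The extremes were far apart. UTP10, a large scaffold of the small subunit processome, had 64.8, 58.00 and 69.8 CPM in the footprint libraries, against 279.7, 197 and 186 CPM in the mRNA libraries (log2 ratio -1.87 ± 0.16), and REA1, the giant AAA ATPase of 60S maturation, 79.7, 67.4 and 71.8 CPM in the footprint libraries, against 362, 239 and 271 CPM in the mRNA libraries (-2.07 ± 0.15). CGR1, a small 60S processing factor, had 79.1, 71.1 and 100.1 CPM in the footprint libraries, against 18.2, 5.91 and 9.95 CPM in the mRNA libraries (2.82 ± 0.29), and RRP36, a 40S factor, 27.1, 22.02 and 36.8 CPM in the footprint libraries, against 2.28, 0.5804 and 0.8898 CPM in the mRNA libraries (4.37 ± 0.39). NOP56, a core box C/D snoRNP protein, had 449, 359 and 314 CPM in the footprint libraries, against 123, 29.5 and 42.3 CPM in the mRNA libraries (2.51 ± 0.41), with mRNA replicate 1 well above replicates 2 and 3. The mean log2 mRNA level of 40S factors ranged by 0.52 over the mRNA libraries. Without mRNA replicate 1 the count of higher 40S factors was 28, 12 of them by at least 2-fold instead of 6, and without footprint replicate 2 the count of lower ones was 16. RNA polymerases I and III had 10 of 36 genes higher and 12 lower, with RRN7, an initiation factor of polymerase I, lowest at -2.91 ± 0.26.

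Chaperone and proteasome genes carried many footprints for their mRNA. Of 35 cytosolic chaperone genes 27 were higher, 23 of them by at least 2-fold, and 3 lower, with a median log2 ratio of 1.33. Of 36 proteasome genes 33 were higher and none lower, with a median of 1.32. Chaperones took 3.31%, 4.23% and 4.68% of footprint counts, against 1.24%, 1.001% and 1.16% of mRNA counts. Proteasome genes took 1.46%, 1.64% and 1.85% of footprint counts, against 0.837%, 0.546% and 0.723% of mRNA counts. HSP104, the disaggregase, had 4207, 5636 and 5596 CPM in the footprint libraries, against 438, 196 and 357 CPM in the mRNA libraries (log2 ratio 3.90 ± 0.32, adjusted p = 2.09e-05). HSP82, the inducible Hsp90, had 1241, 2094 and 2434 CPM in the footprint libraries, against 244, 74.8 and 157 CPM in the mRNA libraries (3.56 ± 0.41), and HSC82, its constitutive copy, had 2098, 2553 and 2735 CPM in the footprint libraries, against 1375, 1591 and 1519 CPM in the mRNA libraries (0.61 ± 0.25, adjusted p = 0.0589). HSP82 and HSC82 are close copies, so that this pair is uncertain for the reason given for RPs. SSA4, an inducible Hsp70, had a log2 ratio of 3.59 ± 0.35, and SIS1, an Hsp40, 3.54 ± 0.35. Among proteasome genes PUP2 was highest, PRE6, another alpha subunit, had 560.2, 583 and 715 CPM in the footprint libraries, against 101, 27.96 and 44.3 CPM in the mRNA libraries (3.39 ± 0.37), and RPT6, an ATPase of the base, was the lowest called at 0.52 ± 0.18. UMP1, a proteasome assembly chaperone, was not called, with 262, 316 and 322 CPM in the footprint libraries, against 285, 351 and 351 CPM in the mRNA libraries. The lowest median over the 9 library pairings was 1.02 for chaperones and 0.87 for the proteasome. RPT6 lost its call without footprint replicate 2 or 3 or mRNA replicate 1 or 3 (adjusted p 0.0509 to 0.105), and the 3 lower chaperones were 1 without footprint replicate 3. HSC82 was higher under several alternatives. With all 6 libraries it was called with library totals (log2 ratio 0.72, adjusted p = 0.0111) and with upper-quartile factors (0.63, adjusted p = 0.0365) by edgeR, and by DESeq2 (0.62, adjusted p = 0.00654) and limma-voom (0.61, adjusted p = 0.0469). It was also called without mRNA replicate 2 (0.77, adjusted p = 0.0379), and under the other alternatives its adjusted p was 0.0596 to 0.181.

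Within complexes whose subunits are made in equal amounts, ratios were uneven. The 8 subunits of the CCT chaperonin, a ring of 8 different proteins that folds actin and tubulin, had footprint levels of 262 to 512 CPM in every library. Their mRNA levels spread from 138 to 508 CPM. CCT2 was highest in ratio at 1.13 ± 0.22 and CCT4 lowest at -0.70 ± 0.18, with TCP1 at 0.02 ± 0.16. The 6 subunits of prefoldin, which hands actin and tubulin to CCT, likewise had footprint levels of 42.3 to 98.7 CPM and mRNA levels of 2.95 to 121 CPM. GIM4 had 43.1, 42.3 and 43.2 CPM in the footprint libraries, against 5.24, 2.95 and 4.78 CPM in the mRNA libraries (3.23 ± 0.18), and GIM5 73.8, 67.95 and 58.1 CPM in the footprint libraries, against 91.7, 121 and 94.3 CPM in the mRNA libraries (-0.74 ± 0.21). These levels are not per length, and both complexes were picked after their values were seen. GIM5 had an adjusted p of 0.0502 without footprint replicate 3.

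Of 50 environmental stress genes 43 were higher, 38 of them by at least 2-fold, and none was lower, with a median log2 ratio of 1.74. They took 4.06%, 5.55% and 6.79% of footprint counts, against 1.26%, 0.948% and 1.65% of mRNA counts. HSP12, a membrane-protecting small stress protein, had 5952, 7584 and 9635 CPM in the footprint libraries, against 951, 485 and 934 CPM in the mRNA libraries (log2 ratio 3.22 ± 0.33) and was among the 15 genes with the most footprints. SOD1, the copper-zinc superoxide dismutase, had 2829.8, 4138 and 5111 CPM in the footprint libraries, against 667, 573 and 1027 CPM in the mRNA libraries (2.32 ± 0.33), TRX2, a thioredoxin, 1403, 2484 and 3610.1 CPM in the footprint libraries, against 229, 199.8 and 437 CPM in the mRNA libraries (3.02 ± 0.43), and ALD3, an aldehyde dehydrogenase, 179, 481 and 1123 CPM in the footprint libraries, against 68.98, 13.7 and 27.6 CPM in the mRNA libraries (3.99 ± 0.72). In all 4 genes, footprint replicate 1 was lowest and replicate 3 highest. The mean log2 level of the list ranged by 0.69 over the footprint and 0.61 over the mRNA libraries, and the median ratio over the 9 library pairings ran from 1.15 to 2.53. SPI1, a cell wall protein of stationary phase, was the lowest called member at 0.55 ± 0.16, with an adjusted p of 0.0872 without footprint replicate 2. GPH1, glycogen phosphorylase, was not called at -0.48 ± 0.27. Without mRNA replicate 1, 2 members of the list were lower, GPH1 at -0.72 and YAK1 at -0.55, and limma-voom called YAK1 at -0.43 (adjusted p = 0.0475) with all 6 libraries.

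Most mitochondrial ribosomal protein genes and most respiratory chain and ATP synthase genes were higher, while fewer than 50% of the protein import and of the TCA and glyoxylate cycle genes were. Of 76 mitochondrial ribosomal protein genes 53 were higher, 34 by at least 2-fold, and 5 lower, with a median log2 ratio of 0.90. RSM27, of the small subunit, had 76.7, 74.7 and 71.95 CPM in the footprint libraries, against 16.6, 4.59 and 7.67 CPM in the mRNA libraries (log2 ratio 2.90 ± 0.33), and MRPL15, of the large subunit, 65.1, 73.2 and 56.9 CPM in the footprint libraries, against 15.2, 4.75 and 8.68 CPM in the mRNA libraries (2.72 ± 0.30). MRPL4 was lowest at -0.89 ± 0.16. Of 45 respiratory chain and ATP synthase genes 29 were higher and 2 lower, with a median of 0.83. STF2, which stabilises the inhibited ATP synthase, was highest with 734, 889 and 1082 CPM in the footprint libraries, against 61.2, 51.6 and 98.5 CPM in the mRNA libraries (3.58 ± 0.30). COX26, a small subunit of cytochrome oxidase, had 438, 347 and 267 CPM in the footprint libraries, against 27.99, 40.6 and 51.2 CPM in the mRNA libraries (3.02 ± 0.31), while ATP1, the alpha subunit of the synthase, had 2406, 2214 and 2118 CPM in the footprint libraries, against 1961, 1814 and 2098 CPM in the mRNA libraries (0.10 ± 0.23, adjusted p = 0.714). NDE1, the external NADH dehydrogenase, was lowest at -0.84 ± 0.25 and lost its call without footprint replicate 2 (adjusted p = 0.063). Without mRNA replicate 1, lower genes numbered 9 among mitochondrial ribosomal proteins and 6 in the respiratory list. The respiratory list had 0 lower genes without footprint replicate 2 and 1 without footprint replicate 3 or mRNA replicate 2 or 3, and scaling by library totals left 3 lower mitochondrial ribosomal protein genes. Of 43 protein import genes 18 were higher and 9 lower, from TOM40, the outer membrane channel, at -1.37 ± 0.24 to SAM37, of the beta-barrel sorting complex, at 2.50 ± 0.29. Of 27 TCA and glyoxylate cycle genes 11 were higher and 3 lower. The 11 were 7 without footprint replicate 2, and the 3 were 6 without mRNA replicate 1 and 6 with DESeq2.

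Genes encoded in mitochondrial DNA were counted at low levels in both assays. Mitochondria use their own ribosomes, and their mRNAs in yeast lack poly(A) tails, while the footprints came from a gradient fraction of 80S ribosomes and the mRNA from poly(A) enrichment. Of 9 listed genes 8 were tested, and 2 were lower: COX1 with 4.23, 20.1 and 5.602 CPM in the footprint libraries, against 43.7, 51.7 and 69.2 CPM in the mRNA libraries and SCEI, a homing endonuclease, with 0.353, 0.353 and 0.525 CPM in the footprint libraries, against 5.36, 5.38 and 7.51 CPM in the mRNA libraries. Footprint replicate 2 stood above replicates 1 and 3 for COX1, for COX2 (5.86, 34.7 and 5.78 CPM in the footprint libraries, against 6.55, 5.54 and 8.68 CPM in the mRNA libraries) and for COX3 (2.19, 22.5 and 2.63 CPM in the footprint libraries, against 4.71, 6.01 and 6.12 CPM in the mRNA libraries). Without that library 5 of the 8 were lower, the median log2 ratio was -1.65 in place of -0.71, and COX3 had a log2 ratio of -1.37 (adjusted p = 0.0155) in place of 0.66.

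Metabolic lists differed. Of 26 ergosterol genes 16 were lower and 3 higher, with a median log2 ratio of -0.77. ERG2 was lowest at -1.73 ± 0.27, HMG1, HMG-CoA reductase, had 140.2, 108 and 104 CPM in the footprint libraries, against 320.5, 317 and 255 CPM in the mRNA libraries (-1.44 ± 0.20), and UPC2, the sterol-sensing activator of the pathway, was highest at 0.96 ± 0.28. Of 77 amino acid biosynthesis genes 18 were higher and 24 lower. The highest of them were methionine and sulfate genes: besides MET2 and MET14, MET3, ATP sulfurylase, had 122, 296 and 404 CPM in the footprint libraries, against 28.7, 15.99 and 27.9 CPM in the mRNA libraries (3.42 ± 0.40), MET16 a ratio of 2.56 ± 0.32, and MET6, methionine synthase, 2.17 ± 0.29. THR1, homoserine kinase, was lowest at -1.97 ± 0.20. The 12 members lower by at least 2-fold were 7 without mRNA replicate 2. Of 21 glycolysis and fermentation genes 4 were higher and 5 lower, with a median of -0.13, and the abundant enzymes TDH3 (-0.09 ± 0.32) and PGK1 (0.22 ± 0.32) were not called. TDH1, the stress-induced glyceraldehyde-3-phosphate dehydrogenase, was highest with 915, 1422 and 1747 CPM in the footprint libraries, against 129.7, 116 and 502 CPM in the mRNA libraries (2.35 ± 0.56), and HXK2, the main hexokinase on glucose, lowest with 291, 256 and 205 CPM in the footprint libraries, against 662, 787 and 657 CPM in the mRNA libraries (-1.60 ± 0.24). TDH1 and TDH3 belong to a family of similar genes, so their counts are uncertain. Lower glycolysis genes numbered 2 without footprint replicate 2 or 3 and 3 without mRNA replicate 2. Of 33 purine and pyrimidine genes 7 were higher, IMD2 most at 2.75 ± 0.31, and 14 lower, PRS1 most at -1.81 ± 0.21. IMD2 belongs to a family of closely similar IMP dehydrogenase genes, so its counts are uncertain.

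More than 50% of the cell wall and of the plasma membrane transporter genes were lower. Of vesicle and vacuolar genes 38.3% and 34.6% were higher, against 32.4% of all genes, and 27.7% and 19.2% lower, against 33.6%. The median log2 ratio of the vacuolar list was 0.06 and ran from -0.06 to 0.17 over the alternatives. Of 49 cell wall and secreted mannoprotein genes 32 were lower and 4 higher, with a median log2 ratio of -0.74, and the 32 and the 4 were 21 and 2 without footprint replicate 2. They took 6.22%, 6.05% and 5.08% of footprint counts, against 8.27%, 11.3% and 9.28% of mRNA counts. CCW12, the most abundant mRNA of the cells, had 10879, 10446 and 6017 CPM in the footprint libraries, against 19862, 35151 and 22580.4 CPM in the mRNA libraries (-1.64 ± 0.41, adjusted p = 0.0061). FLO11, a flocculin, was lowest with 0.353, 0.212 and 0.875 CPM in the footprint libraries, against 11.8, 12.8 and 12.2 CPM in the mRNA libraries, all footprint libraries being under 1 CPM. PST1, induced by cell wall stress, was highest at 1.09 ± 0.26. Of 79 plasma membrane transporter genes 40 were lower and 15 higher, with a median of -0.63. MAL31, a maltose transporter with closely similar copies, was lowest with 0.917, 0.917 and 2.101 CPM in the footprint libraries, against 41.8, 16.9 and 27.5 CPM in the mRNA libraries, and SUL2, a sulfate permease, highest with 39.9, 117 and 239 CPM in the footprint libraries, against 11.3, 7.18 and 18.5 CPM in the mRNA libraries (3.33 ± 0.60). PMA1, the proton pump and the most abundant transporter mRNA of the list, was not called, with 6420.4, 6095 and 6041 CPM in the footprint libraries, against 6623, 7630.0 and 8432 CPM in the mRNA libraries. ENA1 and ENA5, near-identical sodium pump genes, gave 3.28 ± 0.16 and -4.18 ± 0.32 and are uncertain. Of 43 ER translocation, folding and glycosylation genes 17 were lower, PMT4, a protein mannosyltransferase, most at -2.48 ± 0.23, and 10 higher, ERO1, the oxidase of disulfide formation, most at 1.75 ± 0.28. Of 47 vesicle coat and SNARE genes 18 were higher and 13 lower, and of 26 vacuolar ATPase and protease genes 9 were higher and 5 lower.

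Nuclear and signalling lists held genes of both directions, as did all genes tested, of which 32.4% were higher and 33.6% lower. Of 66 genes of RNA polymerase II, its general factors and Mediator 28 were higher and 11 lower, with NUT2, a Mediator subunit, highest at 3.84 ± 0.25 and TFB2, a TFIIH subunit, lowest at -1.93 ± 0.17. Of 56 splicing factor genes 26 were higher and 10 lower, with LSM8 at 3.93 ± 0.40 and PRP8, the large core protein of the spliceosome, at -1.70 ± 0.17. Of 107 transcription factor genes 38 (35.5%) were higher and 42 (39.3%) lower, near the shares over all genes. HAC1 and GCN4 were lowest, and MIG1, the glucose repressor, was highest with 143, 144 and 124 CPM in the footprint libraries, against 22.8, 2.95 and 6.34 CPM in the mRNA libraries (3.65 ± 0.55), its mRNA replicate 1 far above replicates 2 and 3. Of 55 protein kinase genes of signalling pathways 25 were lower and 6 higher, the 6 being 3 without footprint replicate 2. TEL1 was lowest at -1.93 ± 0.15 and TOR2, a kinase of growth control, had 34.9, 30.1 and 45.3 CPM in the footprint libraries, against 128, 120.2 and 121 CPM in the mRNA libraries (-1.85 ± 0.18). Of 51 nuclear pore and karyopherin genes 25 were lower and 11 higher, the 11 being 17 without mRNA replicate 1. Of 53 DNA replication and repair genes 21 were lower and 14 higher, from CDC45 at -1.90 ± 0.14 to PRI2, a primase subunit, at 1.60 ± 0.25. Of 42 cyclin and cell cycle genes 15 were lower and 11 higher, the 11 being 7 without mRNA replicate 3, from ESP1, separase, at -2.34 ± 0.16 to PCL1, a G1 cyclin, at 1.93 ± 0.35. Of 41 actin, tubulin and motor genes 15 were higher and 13 lower. ACT1, actin, had 3162, 3011 and 2819.7 CPM in the footprint libraries, against 4628, 6265 and 5638 CPM in the mRNA libraries (-1.0 ± 0.28), and DYN1, the dynein heavy chain, was lowest at -2.48 ± 0.20. Of 51 mRNA decay and RNA-binding genes 14 were higher and 13 lower, with PAN2, a deadenylase subunit, lowest at -1.83 ± 0.26, and SLF1, a La-motif protein, highest at 2.82 ± 0.34. Among 11 histone genes 4 were higher and 1 lower. HHF1, histone H4, was highest at 1.73 ± 0.20, and HTB2, histone H2B, lowest at -0.93 ± 0.23, in a family of similar copies. The count of lower histone genes was 2 without mRNA replicate 1.

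Genes of mating and of sporulation are little used in a growing haploid culture. Of 23 mating genes tested 9 were lower and 3 higher, the 3 being 5 without mRNA replicate 1. Besides FIG2, AGA1, the anchor of the a-agglutinin, had 4.305, 4.66 and 4.902 CPM in the footprint libraries, against 47.1, 27.4 and 32.6 CPM in the mRNA libraries (-3.03 ± 0.19), and SST2, which switches the pheromone signal off, 2.12, 1.34 and 2.801 CPM in the footprint libraries, against 32.2, 17.9 and 25.2 CPM in the mRNA libraries (-3.73 ± 0.28). SAG1, the alpha-agglutinin, had 3.599, 6.28 and 7.35 CPM in the footprint libraries, against 44.2, 41.8 and 49.6 CPM in the mRNA libraries (-3.11 ± 0.26), so that its mRNA was present in a culture with MF(ALPHA)2 at or under 0.0556 CPM. In bulk samples, fewer cells that use a gene and less RNA per cell cannot be told apart. Of 33 meiosis and sporulation genes tested 14 were higher and 9 lower. Higher members numbered 7 without footprint replicate 2 and 9 without replicate 3, and lower ones 5 without mRNA replicate 3. SPS4 was highest (2.96, 2.47 and 1.58 CPM in the footprint libraries, against 0.125, 0.158 and 0.111 CPM in the mRNA libraries) and SSP2 lowest (0.565, 0.212 and 0.525 CPM in the footprint libraries, against 7.79, 4.801 and 5.28 CPM in the mRNA libraries), both at few counts. Of the strain's marker genes TRP1 had 16062, 14300.4 and 11643 CPM in the footprint libraries, against 10189, 9993 and 11832 CPM in the mRNA libraries, the highest footprint level of any gene, and URA3 9212, 8354 and 7698 CPM in the footprint libraries, against 9858, 6902 and 7827 CPM in the mRNA libraries. Neither was called (log2 ratios 0.29 ± 0.28 and -0.04 ± 0.25).

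The ratio fell with the length of the gene. Lengths were taken from RefSeq's R64 gene models, which are coding sequences with any introns. Mitochondrially encoded genes and genes that overlap another listed gene were left out. The median log2 ratio was 0.85 for 205 genes of up to 300 bp, 0.61 for 648 genes of 301 to 600 bp, 0.28 for 876 of 601 to 900 bp, 0.02 for 1589 of 901 to 1500 bp, -0.23 for 1299 of 1501 to 2400 bp, -0.48 for 588 of 2401 to 3600 bp and -0.89 for 253 genes over 3600 bp. In the shortest class 46.3% of genes were at least 2-fold higher, against 3.16% in the longest, where 43.5% were at least 2-fold lower. The shortest class also held 21.5% of genes at least 2-fold lower, more than the next class with 8.18%. Across 5458 genes Spearman's rho between ratio and length was -0.319, and -0.406 to -0.221 over the 9 library pairings. Cytosolic RP genes are short and had low ratios, and without them rho was -0.348 over 5320 genes. REA1, DYN1, TEL1, PRP8 and UTP10, each the lowest called of its list and picked here for their length, had gene models of 14733, 12279, 8364, 7242 and 5310 bp.

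**Figure D5:**
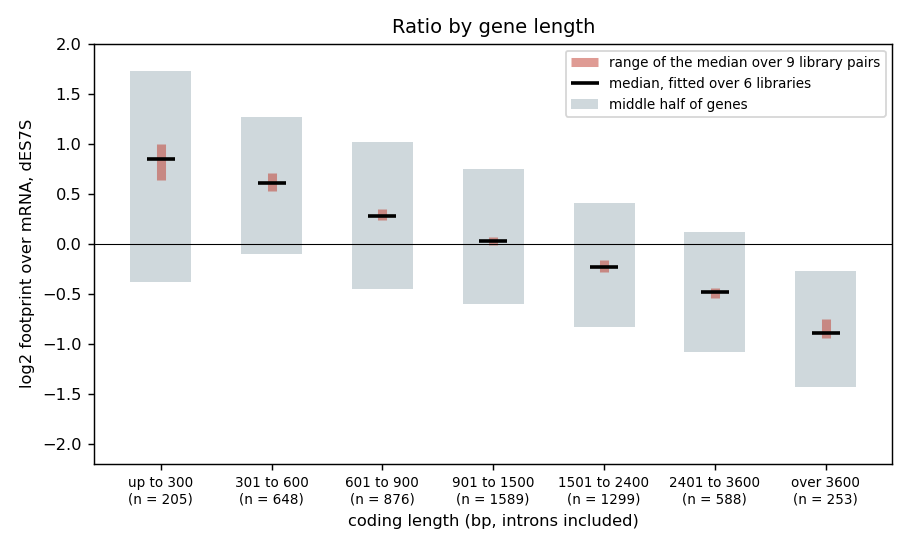
Log2 footprint over mRNA ratio in dES7S cells by class of coding length, with the median fitted over 6 libraries (black), the range of the median over 9 pairings of a footprint with a mRNA library (red) and the middle 50% of genes (grey boxes). The median is 0.85 in genes of up to 300 bp, lower in each longer class, and -0.89 in genes over 3600 bp.

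Set against the median of genes in the same length class, the members of several lists had these medians. The difference was 1.68 for environmental stress genes, 1.22 for chaperones and 1.16 for the proteasome, and -1.31 for 40S RPs, -1.11 for 60S RPs, -0.88 for cell wall proteins and -0.70 for ergosterol genes. It was 0.45 for mitochondrial ribosomal proteins and 0.29 for the respiratory list, against medians of 0.90 and 0.83 without regard to length. The sign changed for mitochondrial protein import, at -0.13 against a median of 0.31, and for the 11 histone genes, at -0.41 against 0.18. For signalling kinases it was 0.03 and for nuclear pore and karyopherin genes 0.10, against medians of -0.34 and -0.39. By mRNA level per kb, which is the denominator of the ratio, rho was -0.130 across 5458 genes, with a median ratio of 0.36 in the fifth of genes with the least mRNA and -0.22 in the fifth with the most.

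Of the 15 genes with the highest footprint levels, 10 were also among the 15 highest in mRNA. They included PDC1, pyruvate decarboxylase, with means of 9848 ± 1854 CPM in footprints and 17054 ± 1543 CPM in mRNA (SD, n = 3 each), and FBA1, aldolase, with 8215 ± 46.5 CPM in footprints and 10116 ± 883 CPM in mRNA. AHP1, a peroxiredoxin, was among the footprint leaders alone, with 7082, 9637 and 10384 CPM in the footprint libraries, against 2259, 1042 and 3160.4 CPM in the mRNA libraries (2.0 ± 0.38, adjusted p = 0.00159). RPL3 was among the 15 highest in mRNA alone. Spread within an assay was modest for most genes: the median range over 3 libraries was 0.30 on the log2 scale for footprints and 0.45 for mRNA, and of 4836 genes whose log2 CPM averaged 4 or more, 217 ranged at least 2-fold over footprints and 382 over mRNA.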

How the data were processed

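Footprint and mRNA libraries of the dES7S strain were analysed, with groups taken from the sample labels. The authors deposited unnormalised read counts by gene, in a table per library that lists genes with 1 count or more. Genes not listed were set to 0. Per the labels' protocols, RNase I-digested lysates were run on a density gradient for their 80S ribosomes, mRNA was poly(A)-enriched and randomly fragmented, and fragments of 24 to 28 nt were ligated, circularised and amplified in 4 to 8 PCR cycles. Fragments were counted without molecular identifiers, so counting error is smaller than the true error. The submitters' processing notes name FastQC 0.11.7 and Bowtie 1.2.3. Not given in the sources used here are the build, the annotation, the counter, and how strand and reads with several matches were treated.

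Of 5738 genes in any of the 6 libraries, 5734 were matched by systematic name to RefSeq's table for assembly R64, used for names, neighbours and lengths, and 4 were not. Counts were fitted with edgeR 4.0.16 in R 4.3.3 (filterByExpr, TMM, robust glmQLFit, glmQLFTest, footprints over mRNA, no covariate), two-sided, with Benjamini-Hochberg adjustment over 5535 genes and a threshold of 0.05. For the SE, the size of the log2 ratio was divided by √F. CPM use library totals, not TMM factors. Within an assay, libraries differed by a chi-square per degree of freedom of 37.5 to 241, so none was a copy of another. The fit was tested on simulated data. Named genes were, among genes that averaged a log2 CPM of 4 or more, were called and had no overlap of libraries, the 15 highest and the 15 lowest ratios, plus the highest and lowest called member of each list and 14 fixed genes with the mitochondrially encoded ones. The lists and the rule were chosen with earlier results of these data known, so no list was tested. Alternatives were other scalings and filters, DESeq2 1.42.0, limma-voom (limma 3.58.1), a replicate block and leaving out each library. A planned look at start codon context was not made, since no sequence was used here.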

Additional observations from a re-analysis of the deposited data

How the results depend on the processing

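The counts of genes called among all genes tested stayed within 1.5 times the reported ones under every alternative run. Higher genes numbered 1489 to 1941 and lower genes 1550 to 1999 when 1 library was left out, and 968 to 1138 and 856 to 1066 by at least 2-fold. DESeq2 called 1862 higher and 1896 lower, and limma-voom 1813 and 1877. Scaling by library totals alone gave 1753 higher and 1601 lower and placed the median log2 ratio of all genes at 0.06 instead of -0.02. The replicate numbers were not found to pair the libraries throughout. Across 4109 genes, deviations from the assay means correlated by 0.061, -0.034 and 0.443 between libraries of the same number, replicates 1 to 3. Between libraries of different numbers the correlations ran from -0.571 to 0.317. Among footprint libraries, only replicate 3 correlated most with the mRNA library of its own number. The fit with the replicate number as a block called 1816 higher and 1841 lower. Among the named genes, COX3 reversed, at -1.37 without footprint replicate 2 (adjusted p = 0.0155, edgeR) and between that and 1.15 over all single libraries left out. In 75 cases a named gene lost its call under an alternative and in 23 it gained one, against 3232 in which call and direction held. Many named genes were chosen for extreme ratios or for being called, so these counts do not measure how well calls hold over all genes. Counts of members called moved by more than 1.5 times in some lists, as given with them. Some list medians near 0 changed sign over the alternatives. The median log2 ratio ran from -0.21 to 0.11 for 40S assembly factors, from -0.02 to 0.23 for RNA polymerases I and III and from -0.003 to 0.31 for histones. The planned comparison by start codon context was not run. Depth limits the genes near 1 CPM, most of all in footprint replicate 3, the shallowest library.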

Other observations

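Extremes of several lists add genes with known roles to those described above. CIT2, the peroxisomal citrate synthase of the glyoxylate cycle, had 936, 1341 and 2363 CPM in the footprint libraries, against 148, 125 and 280.4 CPM in the mRNA libraries (log2 ratio 2.97 ± 0.43), while PYC2, pyruvate carboxylase, was the lowest called of the same list at -1.03 ± 0.18. VAM7, a vacuolar SNARE, had 49.3, 46.3 and 52.2 CPM in the footprint libraries, against 11.7, 4.06 and 5.12 CPM in the mRNA libraries (2.75 ± 0.29), and SEC23, a COPII coat protein, 275, 288 and 259 CPM in the footprint libraries, against 563, 835 and 709 CPM in the mRNA libraries (-1.48 ± 0.26). STV1, a subunit of the Golgi form of the proton ATPase, was lower at -1.58 ± 0.20. CDC3, a septin, had 363, 311 and 300.4 CPM in the footprint libraries, against 128, 28.8 and 48.1 CPM in the mRNA libraries (2.24 ± 0.40), with mRNA replicate 1 above replicates 2 and 3. KAP122, an importin, was lowest of its list at -1.93 ± 0.20, and GSP2, a Ran GTPase with a close copy, highest at 1.52 ± 0.26. PKH2, a kinase of the sphingolipid response, was the highest kinase at 1.81 ± 0.36, and STE18, the gamma subunit of the pheromone G protein, the highest mating gene at 1.98 ± 0.20. Among synthetases, YHR020W was lowest at -1.54 ± 0.28 and CRS1, the cysteinyl-tRNA synthetase, highest at 1.0 ± 0.28.

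Of 8 auxotrophic and plasmid marker genes 3 were higher and 2 lower, the 2 being 1 when any library other than mRNA replicate 1 was left out or when libraries were scaled by their totals. ADE2 had 69.4, 59.8 and 70.4 CPM in the footprint libraries, against 28.99, 5.17 and 7.897 CPM in the mRNA libraries (2.22 ± 0.48), LEU2 49.6, 34.8 and 28.9 CPM in the footprint libraries, against 12.8, 5.22 and 8.18 CPM in the mRNA libraries (2.06 ± 0.28) and HIS3 348, 356 and 369.7 CPM in the footprint libraries, against 492, 439 and 496 CPM in the mRNA libraries (-0.51 ± 0.17). HIS3 lost its call without footprint replicate 1, 2 or 3 or mRNA replicate 2 or 3, with adjusted p of 0.0508 to 0.0908 by edgeR.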
